A study of Mus musculus with 11 samples.

Results

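The genes described here are 10 enzymes of the cyclooxygenase pathway, chosen by name: Ptgs1, Ptgs2, Ptges, Ptges2, Ptges3, Ptgis, Tbxas1, Ptgds, Hpgds and Hpgd. All 10 were found among the 22196 genes obtained from the files, and 7 of them were among the 12716 genes with enough reads to be tested. Ptgs2, Ptgds and Hpgds had too few reads. The libraries were made from RNA of the inguinal mammary gland of mice carrying a floxed Tsc1 gene, whose product restrains the kinase complex mTORC1. The 6 Knockout libraries are labelled Tsc1-fl/fl; Adipoq-Cre-Tg/+, in which a Cre recombinase gene under the adiponectin promoter removes the floxed segment in adipocytes. The 5 Wild-Type libraries are labelled Tsc1-fl/fl; Adipoq-Cre-+/+, so they carry the floxed alleles too but no Cre. The strain label of every library names the adipocyte knockout line. All animals were on normal chow, the age label is PND16.5 and the glands were taken 16 days after delivery. Lactation is not stated in the labels. They also do not tie each library to an animal, so the p-values measure the spread between these samples.

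Prostaglandins and thromboxane are short-lived lipid signals made from arachidonic acid. Phospholipases release that acid from membranes, 1 of the 2 cyclooxygenases turns it into prostaglandin H2, and a terminal synthase turns this intermediate into prostaglandin E2, D2, I2 or thromboxane A2. Cyclooxygenase 1 is commonly described as the constitutive form and cyclooxygenase 2 as the form induced by growth factors and inflammation. Prostaglandins act on cells close to where they are made. In fat they are known to restrain lipolysis, and in the mammary gland their synthesis has been studied in epithelium and stroma.

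The start regions of the cyclooxygenase genes are shown because they catalyse the same step and differed widely in level, as given below. The sequences are those of the RefSeq promoter table for GRCm38.p6, from 250 bases before to 50 bases after the annotated start, on the plus strand at chr2:36230176-36230475 for Ptgs1 and chr1:150099781-150100080 for Ptgs2. Capitals mark matches, on either strand, to the TATA box TATAAA, the GC box GGGCGG, the E-box CACGTG, the cyclic AMP response element TGACGT or the STAT site TTCNNNGAA.
Ptgs1: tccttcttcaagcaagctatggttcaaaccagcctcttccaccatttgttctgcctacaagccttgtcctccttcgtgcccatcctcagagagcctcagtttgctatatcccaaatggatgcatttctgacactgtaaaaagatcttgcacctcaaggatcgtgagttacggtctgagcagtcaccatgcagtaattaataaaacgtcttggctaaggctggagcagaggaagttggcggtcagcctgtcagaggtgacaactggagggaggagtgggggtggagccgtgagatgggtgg
Ptgs2: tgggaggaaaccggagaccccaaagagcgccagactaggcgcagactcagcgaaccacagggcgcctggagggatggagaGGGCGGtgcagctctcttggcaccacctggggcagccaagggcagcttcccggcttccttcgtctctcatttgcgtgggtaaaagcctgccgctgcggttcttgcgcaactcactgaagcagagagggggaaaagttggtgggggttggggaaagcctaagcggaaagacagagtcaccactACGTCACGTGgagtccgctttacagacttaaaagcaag

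The Ptgs1 window held none of these 5 motifs and 6 CG pairs, with a GC content of 50.7%. The Ptgs2 window held 16 CG pairs at 59.3% GC. It had a GC box that begins 170 bases before the annotated start, and, downstream of that start, a cyclic AMP response element and an E-box that overlap in 1 run of capitals. Where transcription starts in these glands was not tested. Over the 32851 windows of the table, 35.7% held the GC box, 7.15% the E-box, 7.51% the cyclic AMP response element, 13.6% the TATA box and 8.3% the STAT site. The table held windows for 9 of the 10 genes, all but Ptgis. GC boxes were also found for Ptges (2 matches), Ptges3 (4 matches) and Hpgd (1 match), a TATA box for Hpgd and 2 overlapping TATA matches for Tbxas1, and an E-box for Ptges2. The windows of Ptgds and Hpgds held no match. A match is a stretch of letters and shows no binding, and the absence of these letters says nothing of a factor.

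The libraries held 25817975 to 37894237 estimated reads each. Levels of 1 gene across libraries are given in CPM, read counts scaled to library size with TMM factors. Tsc1 itself had a knockout mean of 10.1 CPM ± 1.33 (SD, n = 6) against a wild-type mean of 10.7 CPM ± 1.11 (SD, n = 5). Its log2 fold change, knockout over wild type, was -0.09 ± 0.11 (SE), at an edgeR adjusted p of 0.772, so the whole-gland level did not separate the genotypes. Summed milk protein genes reached 496477 to 707190 CPM across the wild-type libraries, against 393686 to 567313 CPM across the knockout libraries. Markers of adipocytes summed to 1089 to 1553 CPM across the wild-type libraries, against 1530 to 1992 CPM across the knockout libraries. Summed B cell markers were at 54.0, 15.9 and 72.6 CPM in Wild-Type 2, 4 and 5 and at 13.3 CPM in Knockout 1, against at most 3.52 CPM elsewhere. Knockout 1 also carried 2040 CPM of skeletal muscle markers, against at most 172 CPM elsewhere.

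Levels are first compared between genes per transcript length, in TPM, an abundance corrected for length, since CPM counts long genes more. Ptges3, which encodes cytosolic prostaglandin E synthase and is also known as the heat shock protein 90 co-chaperone p23, had the highest mean level at 26.6 TPM ± 5.06 (SD, n = 11). Ptges, the inducible membrane-bound prostaglandin E synthase, followed at 8.22 TPM ± 4.16, and Ptges2, a further membrane-associated enzyme of that name, at 5.73 TPM ± 1.26. Ptgs1 averaged 2.22 TPM ± 1.12 and Hpgd 1.67 TPM ± 0.98. The other 5 enzymes were all below 1 TPM in every library: Hpgds averaged 0.332 TPM, Ptgds 0.262 TPM, Tbxas1 0.199 TPM, Ptgis 0.105 TPM and Ptgs2 0.059 TPM. Each gene was above the next in that order in at least 10 of 11 libraries, except that Ptgs1 was above Hpgd in 8, Hpgds above Ptgds in 8 and Ptgds above Tbxas1 in 6. The order of Hpgds, Ptgds and Tbxas1 is therefore not separated by the spread between libraries. For Ptgs1 and Hpgd the genotypes are given apart. In the wild-type libraries Ptgs1 ran from 2.04 to 3.95 TPM, above Hpgd at 0.995 to 1.52 TPM with no overlap, while in knockout Ptgs1 at 0.922 to 1.64 TPM lay within the Hpgd range of 0.39 to 3.48 TPM. The 3 libraries with Hpgd above Ptgs1 were Knockout 1, 2 and 6.

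**Figure D1:**
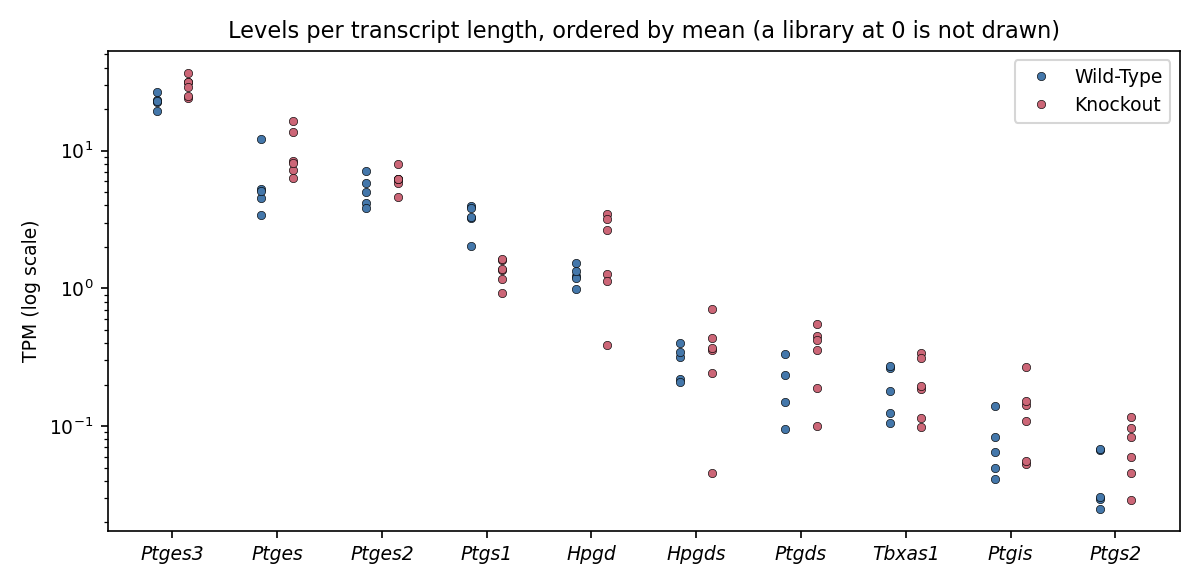
TPM of the 10 enzymes on a log scale, ordered by mean, with 1 point per library for 5 Wild-Type and 6 Knockout libraries. Ptges3 lies highest with a mean of 26.6 TPM and Ptgs2 lowest with 0.059 TPM; the single library at 0, Wild-Type 4 for Ptgds, cannot be drawn on this axis.

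Of the cyclooxygenases, Ptgs1 held nearly the whole transcript pool in both genotypes. Ptgs1, the gene of cyclooxygenase 1, made up 98.6% ± 0.587 (SD, n = 5) of the summed TPM of both genes without Cre, and 94.6% ± 3.03 (SD, n = 6) with it. The ratio of Ptgs1 to Ptgs2 TPM was 14.1, 11.8, 47.6, 35.2, 27.8 and 9.54 in Knockout 1 to 6, and 48.0, 131, 135, 67.4 and 56.1 in Wild-Type 1 to 5. The genotypes did not overlap, although the highest knockout and lowest wild-type ratios nearly met. Because Ptgs2 had only 3 to 14 reads per library, the denominators are imprecise, and no test was made of this ratio.

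The largest genotype difference among the enzymes was a lower level of Ptgs1 in knockout libraries. Ptgs1 (ENSMUSG00000047250, GRCm38 chr2:36230426-36252272, plus strand) measured 3.75, 5.15, 6.21, 7.25, 7.05 and 3.76 CPM in Knockout 1 to 6. In Wild-Type 1 to 5 it measured 16.49, 15.9, 20.8, 8.08 and 17.4 CPM. The ranges did not overlap, and Wild-Type 4 lay much closer to the knockout libraries than to the rest of its genotype. The wild-type mean was 15.7 CPM ± 4.68 (SD, n = 5) and the knockout mean 5.53 CPM ± 1.56 (SD, n = 6), a 2.85-fold lower level. The log2 fold change was -1.51 ± 0.25 (SE; 95% interval -2.05 to -0.98), and its edgeR adjusted p was 0.0598 over all genes, just short of the threshold of 0.05. By unadjusted p it ranked 11 among all genes tested and 3 among those lower in knockout. In the same fit 7 genes, 0.055% of those tested, passed the threshold, and 0.00786% of the tested genes did so as lower in knockout. Genes without overlap between genotypes made up 1.32% of those tested, and 0.535% were of this kind and lower in knockout.

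Ptgs1 passed the threshold in DESeq2, at the same log2 fold change of -1.51 with an adjusted p of 2.73e-06. That tool called 146 genes, 1.09% of those it tested. Without Wild-Type 4 the edgeR adjusted p was 0.0094 at a log2 fold change of -1.68, and over all the libraries left out in turn it ran from 0.0094 to 0.187. In bulk tissue, fewer cells of a type and less RNA per cell cannot be told apart.

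The level of Ptgs1 moved with that of milk protein genes within the genotypes as well as between them. After each genotype was centred on its mean, its log2 CPM correlated with that of summed milk proteins at r = 0.83 over the 11 libraries, and at r = 0.80 over the 6 knockout libraries alone. These values share the scaling of each library. The other marker sums ran from r = -0.72 (skeletal muscle) to 0.062 (endothelium) over the 11 libraries, with luminal epithelium at -0.68, and from -0.80 (macrophages) to 0.41 (endothelium) over the 6 knockout libraries, with skeletal muscle at -0.79 and neutrophils at -0.76. Wild-Type 4, with the lowest Ptgs1 level of its genotype, also had the lowest milk protein sum of its genotype, at 496477 CPM. At milk protein sums near that of Wild-Type 4 or of Wild-Type 5 (567916 CPM), Knockout 3, 4, 5 and 6 had 3.76 to 7.25 CPM of Ptgs1 against 8.08 and 17.4 CPM. In a fit with milk protein level as a covariate, chosen after seeing the data, the log2 fold change was -0.99 ± 0.19 (SE), at an edgeR adjusted p of 0.257. Of the 7 milk protein genes, 7 had a lower estimate in knockout and none an unadjusted p under 0.05. Their part in the Ptgs1 difference was not tested beyond this fit.

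**Figure D2:**
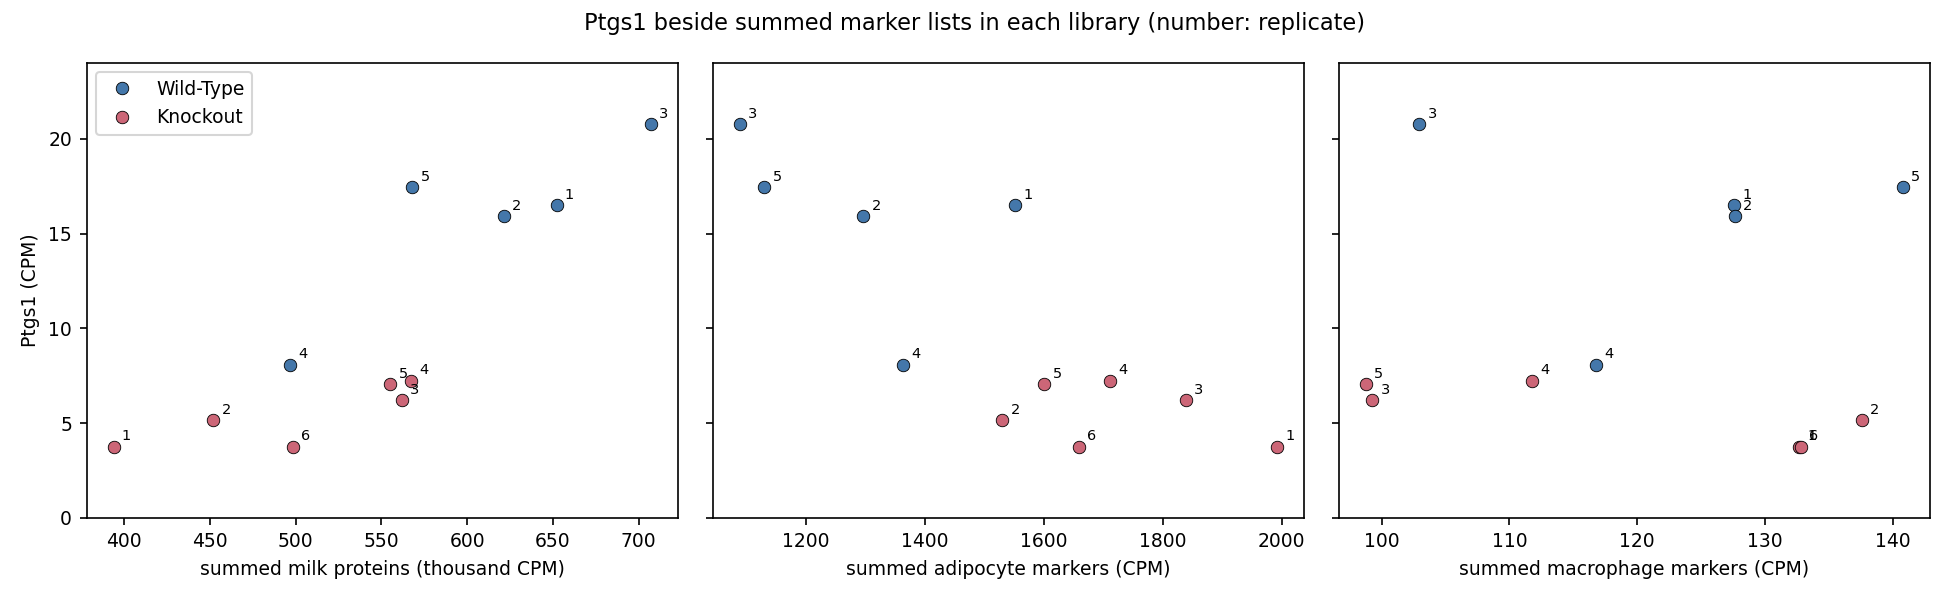
Ptgs1 CPM in each library against the summed CPM of milk protein genes, adipocyte markers and macrophage markers; points are libraries, coloured by genotype and numbered by replicate. Wild-type points span 8.08 to 20.8 CPM of Ptgs1 and knockout points 3.75 to 7.25 CPM, and macrophage sums of 98.7 to 138 CPM in knockout overlap those of 103 to 141 CPM in wild type.

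Markers of cells known for cyclooxygenase 1 gave the following values beside this difference. Macrophage markers summed to 103 to 141 CPM without Cre and 98.7 to 138 CPM with it, and 0 of 10 had an unadjusted p under 0.05. Platelet and megakaryocyte markers summed to 2.14 to 3.71 CPM without Cre and 2.21 to 5.01 CPM with it, with 2 of 8 genes abundant enough to test. Mast cell markers summed to 0.848 to 4.80 CPM and 1.25 to 2.97 CPM, and tuft cell markers to 0.627 to 1.47 CPM and 0.595 to 1.16 CPM, in the same order. No gene of these lists was at 0 reads in all libraries. Of the 10 adipocyte markers, 8 had a higher estimate in knockout and 5 of them an unadjusted p under 0.05, and all 4 tested B cell markers were lower with such a p. Of the 6 luminal epithelium markers 5 had a higher estimate, and of the 8 fibroblast markers 7, each list with 2 at such a p. All 8 smooth muscle and myoepithelium markers were higher in estimate, 1 of them at such a p, and so was the 1 neutrophil marker tested, at such a p. All 5 tested T cell markers were lower in estimate, 1 at such a p. Of the 4 tested Schwann cell markers 1 was higher and 1 lower at such a p. The 6 skeletal muscle markers were all higher in estimate, and 6 of 8 endothelium markers were, with 0 at such a p in either list. Over all genes, 6.31% were higher and 6.08% lower at an unadjusted p under 0.05. The part of these cells in the Ptgs1 difference was not tested. Without Knockout 1 and Wild-Type 2, 4 and 5, the libraries over 10 CPM of B cell markers, the Ptgs1 log2 fold change was -1.67 ± 0.23 (SE), at an edgeR adjusted p of 0.0963.

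The genes most like Ptgs1 in their variation within genotypes were Stard13 at r = 0.97, Gldc, the glycine decarboxylase of the glycine cleavage system, at r = 0.93, and Col9a1, a collagen IX chain, at r = 0.93. These values come from centred log2 CPM over 11 libraries that share depth and scaling, searched over 10901 genes. The knockout and wild-type means were 2.83 and 3.95 CPM for Stard13, 89.4 and 136 CPM for Gldc, and 18.9 and 44.5 CPM for Col9a1. Their log2 fold changes of -0.48, -0.60 and -1.23 did not pass the threshold (edgeR adjusted p = 0.567, 0.511 and 0.263).

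Ptgs2 (ENSMUSG00000032487, GRCm38 chr1:150100031-150108227, plus strand), the gene of cyclooxygenase 2, was near the limit of detection. It had 12, 13, 4, 7, 7 and 14 reads in Knockout 1 to 6 and 10, 3, 5, 4 and 9 reads in Wild-Type 1 to 5. The genotypes overlapped over most of this range. The knockout mean was 0.285 CPM ± 0.117 (SD, n = 6) and the wild-type mean 0.214 CPM ± 0.11 (SD, n = 5). With no filter on low counts the log2 fold change was 0.41 ± 0.43 (SE), at an edgeR adjusted p of 0.712, so that a difference was not detectable at this depth.

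The terminal synthases of prostaglandin E2 did not pass the test. Ptges (chr2:30889471-30929863, minus strand) measured 5.26, 6.96, 4.26, 3.85, 3.93 and 3.02 CPM in Knockout 1 to 6 and 2.00, 2.92, 2.83, 5.38 and 2.67 CPM in Wild-Type 1 to 5. All knockout libraries were above 4 of the 5 wild-type libraries, and Wild-Type 4 was above all but 1 knockout library. The log2 fold change was 0.52 ± 0.26 (SE; 95% interval -0.05 to 1.09; edgeR adjusted p = 0.443). Without Wild-Type 4 it was 0.81 (edgeR adjusted p = 0.193), and with the milk protein level as covariate it was 0.13 (edgeR adjusted p = 0.966). Wild-Type 4 was the lowest library of its genotype for Ptgs1 and the highest for Ptges.

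Ptges2 (chr2:32395896-32405772, plus strand) ran from 12.0 to 15.3 CPM in knockout libraries, with a median of 14.8 CPM. In Wild-Type 1 to 5 it measured 17.3, 11.5, 11.8, 16.2 and 13.1 CPM, a range that contains all knockout values. Its log2 fold change was 0.03 ± 0.12 (SE; 95% interval -0.23 to 0.28; edgeR adjusted p = 0.95). The sign of this estimate turned under several alternatives.

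Ptges3 (chr10:128058954-128077272, plus strand) ran from 12.6 to 15.6 CPM in knockout libraries, with a median of 13.9 CPM. In Wild-Type 1 to 5 it measured 13.6, 13.3, 12.4, 12.2 and 12.4 CPM. The ranges overlapped, and the log2 fold change was 0.14 ± 0.07 (SE; 95% interval -0.02 to 0.29; edgeR adjusted p = 0.464). All stretches of 31 bases in its leading coding sequence, 100%, also occur in annotated transcripts of 2 other genes, Ptges3-ps and Gm11893. Whether these copies were among the quantified transcripts was not checked. Its reads may be split with the copies or include theirs, so its level is uncertain. Of the summed TPM of the 3 prostaglandin E synthase genes, Ptges took 16.9% ± 5.70 (SD, n = 5) without Cre and 21.4% ± 5.37 (SD, n = 6) with it, a difference smaller than 1 SD.

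Prostacyclin and thromboxane synthase genes were expressed at low levels. Ptgis (chr2:167191805-167240604, minus strand), the prostacyclin synthase of vessel walls, had 0.378, 0.477, 0.198, 0.210, 0.955 and 0.370 CPM in Knockout 1 to 6. It had 0.595, 0.167, 0.220, 0.273 and 0.246 CPM in Wild-Type 1 to 5. Knockout 5 and Wild-Type 1 stood above the rest of their genotypes, and the log2 fold change was 0.49 ± 0.46 (SE; 95% interval -0.50 to 1.48; edgeR adjusted p = 0.69). Without Wild-Type 1 the Ptgis estimate was 0.89, and without the libraries over 10 CPM of B cell markers 0.11 (edgeR adjusted p = 0.441 and 0.988). Tbxas1 (chr6:38875404-39084585, plus strand), the thromboxane synthase of platelets and macrophages, ran from 0.396 to 1.06 CPM in knockout libraries, with a median of 0.731 CPM. In wild-type libraries it ran from 0.503 to 1.23 CPM, with a median of 0.638 CPM. The ranges overlapped almost wholly, and the log2 fold change was -0.15 ± 0.33 (SE; 95% interval -0.86 to 0.57; edgeR adjusted p = 0.885). The Tbxas1 estimate ran from -0.55 to -0.11 over the alternatives that kept all libraries, and from -0.28 to 0.050 with a library left out. Both genes overlap others on the opposite strand. No 31-base stretch of their leading coding sequences occurs in an annotated transcript of another gene, on either strand.

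The 2 prostaglandin D synthase genes were barely detected. Ptgds (chr2:25466709-25470046, minus strand), the lipocalin-type synthase, had 15, 2, 11, 10, 9 and 5 reads in Knockout 1 to 6 and 4, 5, 3, 0 and 8 reads in Wild-Type 1 to 5. The 0 in Wild-Type 4 allows up to 0.0911 CPM, counting error only. With no filter the log2 fold change was 0.85 ± 0.62 (SE), at an edgeR adjusted p of 0.61. Hpgds (chr6:65117293-65144908, minus strand), the hematopoietic synthase found in mast cells and macrophages, had 20, 9, 9, 7, 1 and 10 reads in Knockout 1 to 6 and 6, 7, 11, 5 and 10 reads in Wild-Type 1 to 5. With no filter its log2 fold change was -0.01 ± 0.47 (SE), at an edgeR adjusted p of 0.995. Neither gene allowed a genotype difference to be detected at this depth.

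Hpgd (chr8:56294585-56321043, plus strand) encodes the dehydrogenase that starts prostaglandin breakdown. It measured 3.29, 3.44, 1.59, 1.503, 0.477 and 3.10 CPM in Knockout 1 to 6 and 1.44, 1.71, 1.82, 1.46 and 1.97 CPM in Wild-Type 1 to 5. Knockout 1, 2 and 6 lay above all wild-type libraries, Knockout 5 lay below all of them, and the other two lay within their range. The SD was 0.23 CPM over the 5 wild-type libraries and 1.21 CPM over the 6 knockout libraries. The log2 fold change was 0.42 ± 0.39 (SE; 95% interval -0.43 to 1.26; edgeR adjusted p = 0.69). With each library left out in turn it ran from 0.26 to 0.63 (edgeR adjusted p = 0.353 to 0.855). Knockout 1, 2 and 6, the libraries with the most Hpgd, had the 3 lowest milk protein sums of their genotype, at 393686, 451905 and 498355 CPM. They also had the 3 highest sums of their genotype for macrophage markers, at 133, 138 and 133 CPM, and for smooth muscle and myoepithelium markers, at 721, 765 and 753 CPM. The same held for skeletal muscle markers, at 2040, 162 and 33.3 CPM, and for tuft cell markers, at 0.955, 1.16 and 0.939 CPM. Over the 15 marker lists, the centred log2 CPM of Hpgd correlated with their sums from r = -0.51 (milk proteins) to 0.72 (macrophages) over the 11 libraries. Over the 6 knockout libraries it ran from -0.70 (milk proteins) to 0.92 (smooth muscle and myoepithelium), with macrophages at 0.88 and tuft cells at 0.77. The part of these lists in the Hpgd values was not tested beyond the next fit. With the milk protein level as covariate the estimate was -0.19, of the opposite sign (edgeR adjusted p = 0.971).

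**Figure D3:**
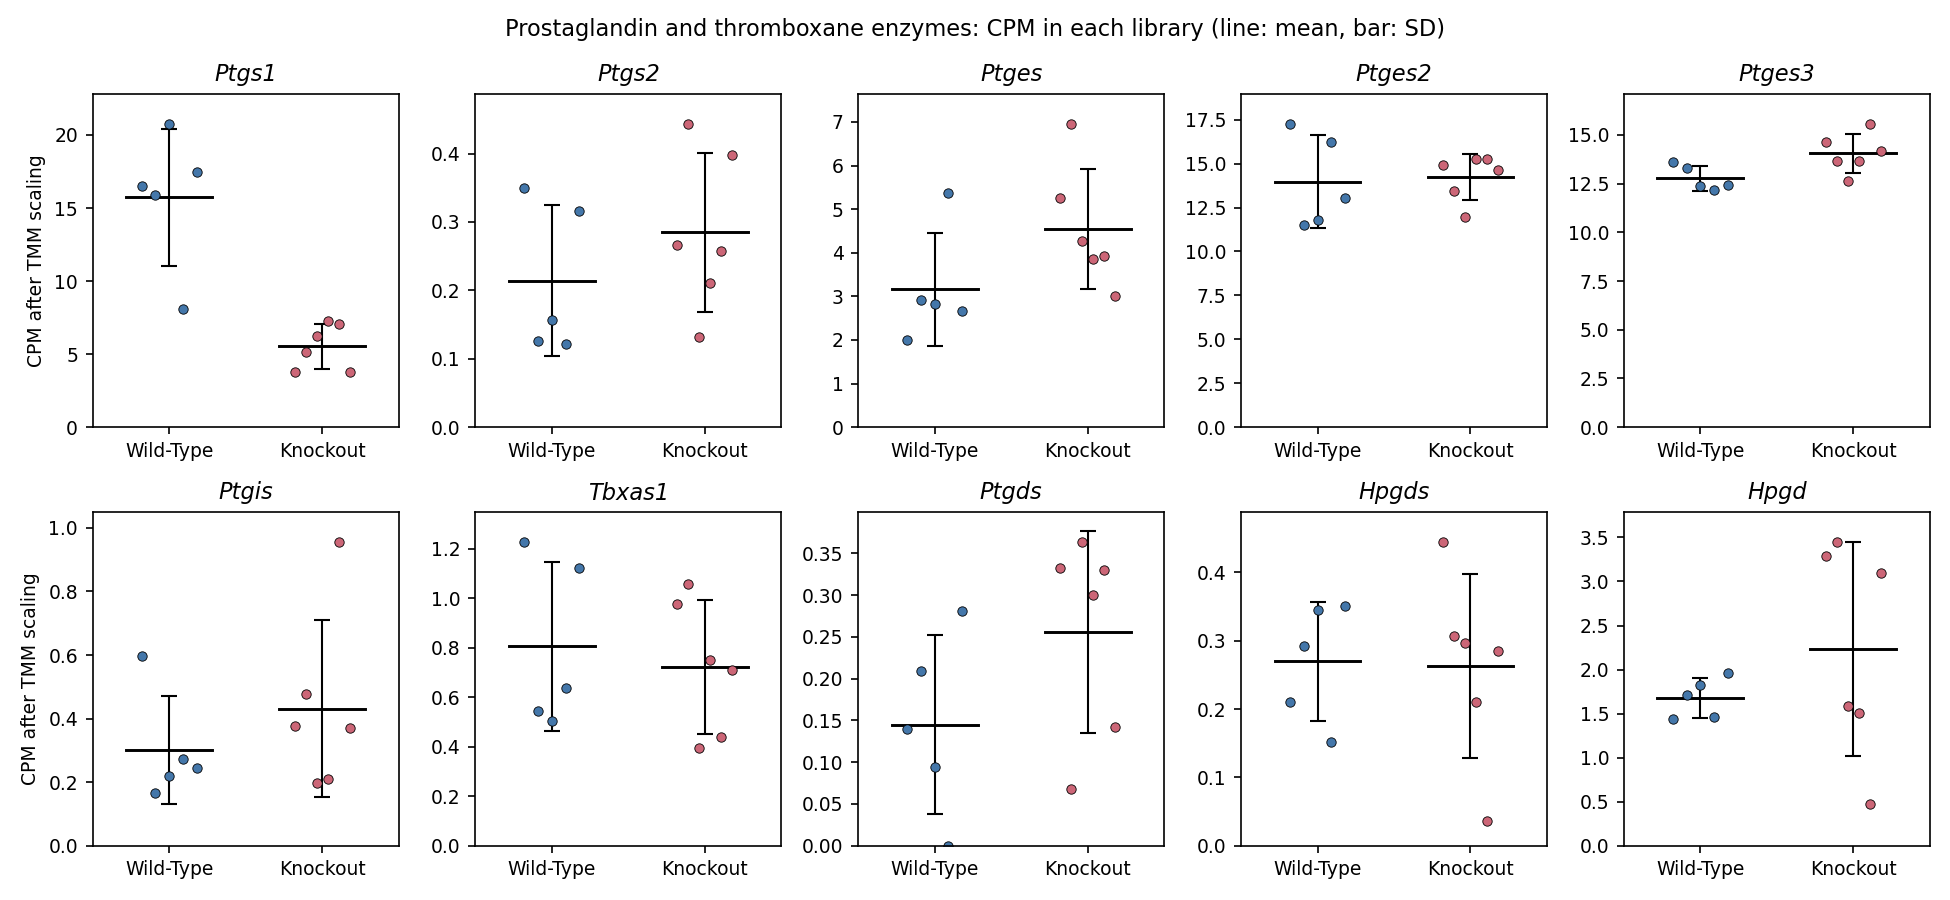
CPM of each of the 10 enzymes in 5 Wild-Type and 6 Knockout libraries; points are libraries, the line is the mean and the bar the SD, and each panel has its own axis from 0. The Ptgs1 points do not overlap between genotypes, with means of 15.7 and 5.53 CPM, and those of the other 9 genes do.

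Over the 7 enzymes tested, 5 had a higher and 2 a lower estimate in knockout, and 0 passed the edgeR threshold, against 0.055% of all genes. At an unadjusted p under 0.05 there was 1, Ptgs1, against 12.4% of all genes, and DESeq2 called 1, Ptgs1 again, against 1.09% of all genes. The median log2 fold change was 0.14, against -0.01 over all genes tested. Apart from Ptgs1 the enzymes thus gave counts no higher than the background.

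Individual transcripts were also tested, on nearly the same reads as the genes, so their results give no separate support. The files list 16 transcripts of the 10 genes, of which 11 had reads. In 9 of the 10 genes 1 transcript held all the reads, and in Ptges3 the leading transcript held 99.48%. No gene had a second transcript with 5% or more, so transcript usage could not be compared between genotypes. The single listed Ptgs1 transcript, Ptgs1-201 with 11 exons, stood at -1.51 ± 0.25 on the log2 scale (SE; edgeR adjusted p = 0.146 over all transcripts). Of the 7 enzyme transcripts tested 0 passed the threshold and 1, Ptgs1-201, had an unadjusted p under 0.05, where 0.00532% and 8.7% of all transcripts did. Of the 31-base stretches of Ptgs1-201, 6.75% also occur in Gm43621, which overlaps it on the opposite strand. The strand setting of the quantification is not given in the sources used here.

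The likeness search described for Ptgs1, over the same 11 libraries and 10901 genes, gave the following for the other tested enzymes. For Ptges the genes given are Brd8 at r = 0.96 and Fhl3 at 0.91. For Ptges2 they were Polr3e at r = 0.94, Ythdc2 at 0.92 and Clmn at 0.91, and for Ptges3 Eya2 at 0.93, Prmt3 at 0.92 and Ttc7 at 0.91. For Ptgis they were Rev1 at r = 0.92, Adam10 at 0.89 and Fam168a at 0.89, and for Tbxas1 Rgs2 at 0.92, Cyb5r4 at 0.88 and Cryab at 0.88. Hpgd varied most like Igkv4-57, an immunoglobulin light chain segment, at r = 0.97, Dhrs7b at 0.93 and Aaas at 0.93. None of the genes named here was given for more than 1 enzyme.

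Around these enzymes, 35 other genes of arachidonate release, prostaglandin receptors, reduction, transport and breakdown were examined. Of these 21 were tested, 12 with a higher and 9 with a lower estimate in knockout, and 0 passed the edgeR threshold. At an unadjusted p under 0.05 there were 4 higher and 2 lower, against 6.31% and 6.08% of all genes. In DESeq2, which called 1.09% of all genes, 3 of them passed: Ptger3, Pla2g4a and Cbr2.

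Upstream of the cyclooxygenases, Pla2g4a, the cytosolic phospholipase A2 that releases arachidonic acid, was higher in every knockout library. It measured 7.86, 10.5, 10.2, 7.19, 6.06 and 9.33 CPM in Knockout 1 to 6 and 5.46, 5.39, 4.59, 4.01 and 6.00 CPM in Wild-Type 1 to 5. The groups did not overlap, though Knockout 5 and Wild-Type 5 nearly met. Genes without overlap and higher in knockout made up 0.786% of all genes tested. The Pla2g4a log2 fold change was 0.75 ± 0.16 (SE), at an adjusted p of 0.137 in edgeR and 0.00457 in DESeq2. Over the edgeR, DESeq2 and limma alternatives with all libraries kept, its adjusted p reached 0.676. Of the 11 genes of arachidonate release 5 were tested, 2 with a higher and 3 with a lower estimate. Pla2g4f and Pla2g6, further phospholipases A2, had log2 fold changes of -0.54 ± 0.23 and -0.28 ± 0.13 (SE; edgeR adjusted p = 0.37 and 0.403). With the milk protein level as covariate they were at -0.13 and -0.057 (edgeR adjusted p = 0.96 and 0.971), and without the libraries over 10 CPM of B cell markers at -0.77 and -0.45 (edgeR adjusted p = 0.597 and 0.49). Pla2g2a and Pla2g10 had 0 reads in all 11 libraries, which allows at most 0.125 CPM in any of them.

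Among the receptors, Ptger3, which encodes the EP3 receptor for prostaglandin E2 known in adipocytes for its coupling to inhibition of lipolysis, was higher in every knockout library. It measured 3.73, 1.74, 2.84, 2.41, 1.43 and 1.99 CPM in Knockout 1 to 6 and 0.946, 1.29, 0.974, 0.729 and 1.05 CPM in Wild-Type 1 to 5. The groups did not overlap, and genes of this kind that were higher in knockout made up 0.786% of all genes tested. The log2 fold change was 1.25 ± 0.25 (SE), at an adjusted p of 0.128 in edgeR and 0.00298 in DESeq2. Over the edgeR, DESeq2 and limma alternatives with all libraries kept, its adjusted p reached 0.676. Of the 10 adipocyte markers 8 had a higher estimate in knockout, 5 of them at an unadjusted p under 0.05, and 2 had a lower one, with 0 past the edgeR threshold. Their sums overlapped between genotypes only through Knockout 2 at 1530 CPM and Wild-Type 1 at 1553 CPM. Their part in the Ptger3 difference was not tested. Ptger2 and Ptger4, the EP2 and EP4 receptors, had log2 fold changes of 0.23 ± 0.20 and 0.18 ± 0.39 (SE; edgeR adjusted p = 0.676 and 0.881), and the sign for Ptger4 turned under several alternatives. Ptger2 was at 0.36 without Knockout 3, its lowest knockout library, at 0.12 without Wild-Type 5, and at 0.010 without the libraries over 10 CPM of B cell markers (edgeR adjusted p = 0.356, 0.863 and 0.997). The other 6 receptor genes, of 9 listed, had too few reads to test.

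No reductase or breakdown gene passed the edgeR threshold. Cbr2, a carbonyl reductase, ran from 6.43 to 8.11 CPM in knockout libraries with a median of 7.60 CPM, and measured 5.60, 4.14, 5.59, 5.53 and 6.60 CPM in Wild-Type 1 to 5. Only Knockout 5 lay below a wild-type library, Wild-Type 5, and the log2 fold change was 0.44 ± 0.11 (SE), at an adjusted p of 0.228 in edgeR and 0.0365 in DESeq2. Over the edgeR, DESeq2 and limma alternatives with all libraries kept, its adjusted p reached 0.676. Of the 9 prostaglandin F synthase and reductase genes 7 were tested, 4 higher and 3 lower, among them Akr1c14 at 0.79 ± 0.37 and Cbr1 at -0.17 ± 0.09 (log2, SE; edgeR adjusted p = 0.409 and 0.479). All 6 genes of transport and later breakdown were tested, 3 higher and 3 lower. Ptgr1, a prostaglandin reductase, stood at 0.31 ± 0.13, Ptgr2, a further reductase, at -0.08 ± 0.11 and the exporter Abcc4 at -0.16 ± 0.22 (log2, SE; edgeR adjusted p = 0.371, 0.806 and 0.808). The signs of Ptgr2 and Abcc4 turned under alternatives.

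**Figure D4:**
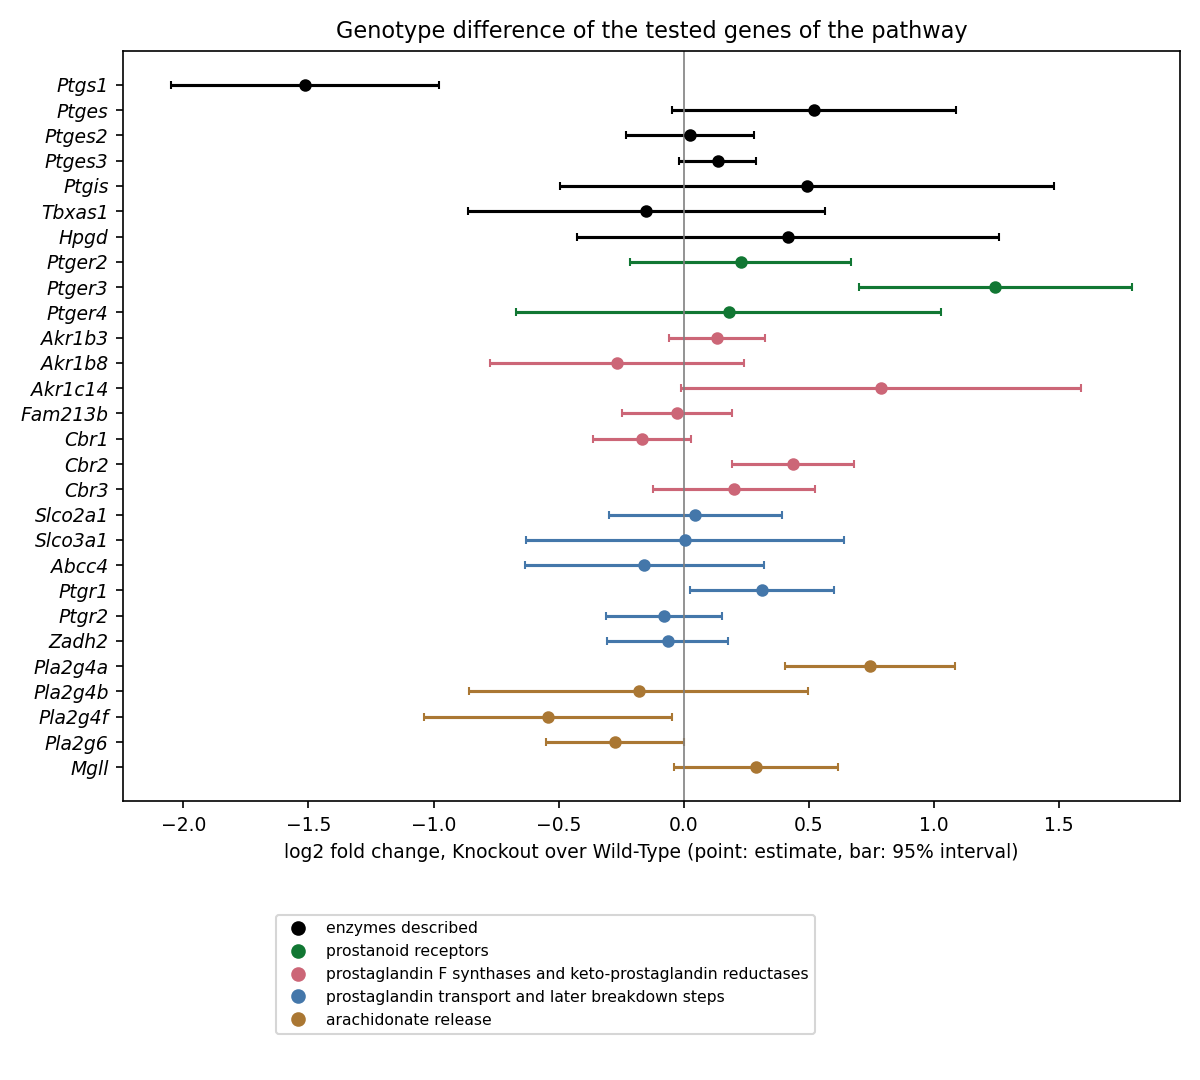
Log2 fold change, knockout over wild type, with its 95% interval, of the 7 tested enzymes and 21 other tested genes of the pathway, coloured by role; Fam213b and Zadh2 are shown under these names of the annotation. Ptgs1 lies lowest at -1.51 and Ptger3 highest at 1.25, and none of these genes had an edgeR adjusted p under 0.05.

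By position, 5 of the 10 enzymes lie on chromosome 2, and 4 of these, Ptgds, Ptges, Ptges2 and Ptgs1, lie within 10.8 Mb of each other by start coordinate, the lower end of a gene on either strand. Tsc1 lies on the same chromosome, 7.59 Mb from Ptgs1. Within 1 Mb of the start coordinates of the 10 enzymes lay those of 237 other tested genes, counted by gene name. Of these, 10.5% had an unadjusted p under 0.05, against 12.4% of all genes and 11.2% of those on chromosome 2. One of them passed the edgeR threshold: Gsn, which encodes the actin-severing protein gelsolin and starts 974046 bases before Ptgs1. Its log2 fold change was 0.94 ± 0.13 (SE), at an edgeR adjusted p of 0.015. Its direction was opposite to that of Ptgs1. That call was lost without any 1 of Knockout 1, Knockout 3, Knockout 6 and Wild-Type 3, where the edgeR adjusted p was between 0.0502 and 0.072. It was also lost with the milk protein level as covariate and without the libraries over 10 CPM of B cell markers (edgeR adjusted p = 0.131 and 0.2). A fit with the replicate number as a block lost it as well. The start coordinate of Pla2g4a is 270413 bases before that of Ptgs2.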

How the data were processed

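RNA-seq libraries of 6 Knockout and 5 Wild-Type inguinal mammary glands were used, grouped by their titles. Per the submitters' processing notes, the tools were Salmon 1.3.0 and DESeq2 1.28.1 and the build GRCm38.p6. Per the file headers, the authors deposited an estimated count, TPM and effective length for each of 58204 transcripts per library. Of the listed lengths, 94.3% were within 3 bases above the coding length, so reads from untranslated regions were mostly not counted. The authors also deposited a gene table named as DESeq2-normalized counts, a signal used in 1 alternative with a pseudocount of 1. Estimated counts were summed per gene by GENCODE M21 identifiers (752 transcripts unmatched, at most 0.265% of reads) and rounded. TPM served only for order and ratios of genes, since milk protein transcripts take a varying share of it. The test was edgeR 4.0.16's quasi-likelihood test (R 4.3.3, TMM, filterByExpr, Benjamini-Hochberg over 12716 genes, threshold 0.05). Log2 CPM for correlations had a prior count of 2. The alternatives used DESeq2 1.42.0, limma 3.58.1, other scalings and filters, and left out each library. Tested on simulated counts of 12642 genes, the method recovered 81.8% of 2-fold and 100% of 4-fold changes, with 8 false calls. The simulation gave every gene the same spread beyond counting error and no differences in tissue make-up. These shares therefore need not hold for the real libraries. Intervals are 95%, and a count of 0 was taken to allow 3 reads. Members and lists were chosen with earlier results of these data known. Named genes are the 10 enzymes, Tsc1, the 3 smallest p-values of each other list, the 3 genes most like each tested enzyme (1 for Ptges is not reported here), and neighbours past the threshold. Genes at 0 reads, overlapping or near-identical genes, those labelled only in a figure and the marker Cfd are named outside that rule, after their values were seen. Sequences are from RefSeq.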

Additional observations from a re-analysis of the deposited data

Results flagged for a closer look

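In 44 sets of libraries, each the values of 1 gene in 1 genotype, 4 had a single library whose gap to the nearest other exceeded Dixon's 95% limit, where chance gives about 1 in 20 sets, or 2.2. Ptges was highest in Wild-Type 4, at 5.38 CPM against 2.00 to 2.92 CPM in the other wild-type libraries. Ptgis was highest in Knockout 5, at 0.955 CPM against 0.198 to 0.477 CPM, and in Wild-Type 1, at 0.595 CPM against 0.167 to 0.273 CPM, from 26 and 17 reads. Ptger2 was lowest in Knockout 3, at 5.12 CPM against 9.47 to 12.0 CPM in the other knockout libraries.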

How the results depend on the processing

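The number of genes past the threshold, 7 with edgeR, was 146 with DESeq2 and 137 with its transcript length factors, 0 with the replicate block with or without length offsets, 0 without the libraries over 10 CPM of B cell markers, 1 with milk protein level as covariate, and 0 to 28 when each library was left out. Leaving out the libraries with B cell markers and the milk covariate were chosen after seeing the data. Of the enzymes, 1 passed with DESeq2 with or without length factors and 0 to 1 when a library was left out, and of the other pathway genes 3 passed with DESeq2 either way. Of the neighbours, where edgeR called 1, 3 passed with DESeq2 either way, 0 with the block either way, 0 without the libraries with B cell markers, 0 with the milk covariate, and 0 to 1 with a library left out. For transcripts, where edgeR called 1, the block gave 0 and leaving out a library 0 to 7, and for enzyme transcripts 0 to 1. The Ptgs1 log2 fold change was -1.51 with DESeq2 (adjusted p = 2.73e-06) and -1.51 with its length factors (adjusted p = 1.18e-05), and -1.68 to -1.39 with a library left out. It kept its sign in all 25 alternatives. The labels do not say whether replicate numbers pair the libraries. Same-numbered libraries correlated at -0.22 to 0.19, and 1 of 5 correlated best with its own number. Such values cannot show whether libraries shared a litter or a processing step. With the replicate block Ptgs1 stood at -1.40 (edgeR adjusted p = 0.515), and Gsn at 0.96 (edgeR adjusted p = 0.316). The cause of these changes was not tested.

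Estimates that were never past the threshold changed sign as follows. Ptges2 was at -0.0413 without the libraries with B cell markers and -0.0412 with the milk covariate, and at -0.035 to 0.11 with a library left out. Tbxas1 was at -0.28 to 0.050 with a library left out, and Hpgd at -0.19 with the milk covariate. Ptger4 was at -0.054 with limma-voom, -0.017 with limma on the deposited table, -0.095 with the block, -0.097 with the block and length offsets, -0.066 with the milk covariate and -0.23 to 0.36 with a library left out. Ptgr2 was at 0.21 with length offsets, 0.22 with DESeq2's length factors, 0.20 with limma on the deposited table and 0.31 with the block and length offsets. Abcc4 was at 0.030 without the libraries with B cell markers. The planned comparison of transcript shares was not run because no enzyme had a second transcript with enough reads. Depth limits Ptgs2, Ptgds and Hpgds, with at most 20 reads in any library.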
